A study of Mus musculus with 11 samples.

Results

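The 10 genes described here encode enzymes that make, convert or break down ceramide: Sptlc1, Sptlc2, Cers2, Cers5, Cers6, Degs1, Sgms1, Ugcg, Smpd1 and Asah1. They were taken by gene symbol from the deposited RNA sequencing table of mouse adipose tissue, and 10 of 10 were among its 12787 genes. Both groups were C57Bl6/J mice on a 60% high fat diet (HFD), and each mouse gave 1 library. The HFD control group, labeled Vehicle, held 5 mice (mice 2 to 6), after the submitters dropped 1 further control mouse on quality grounds. The IMC-treated group held 6 mice (mice 7 to 12) that also received iodomethylcholine (IMC), a small molecule inhibitor of the gut bacterial enzyme that turns choline into trimethylamine. From the study's methods and figure legends, the mice were male and the tissue was the gonadal white adipose depot. By the same sources, the diets lasted 20 weeks, and IMC was given at 0.06% w/w in the diet. Mice of the 20-week HFD cohort began the diet at 6 weeks of age; the age was not stated separately for the sequenced mice, and the labels name the tissue as adipose tissue only. The comparison asks how this inhibitor of gut microbial trimethylamine production altered adipose expression of the ceramide pathway.

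Ceramide is the central lipid of the sphingolipid pathway. In the endoplasmic reticulum, serine palmitoyltransferase joins serine to a fatty acyl-CoA, ceramide synthases add an N-linked acyl chain, and dihydroceramide desaturase inserts the double bond that makes ceramide. Ceramide is then turned into sphingomyelin or glucosylceramide in the Golgi, and lysosomal enzymes recover it from sphingomyelin and cleave it to sphingosine. Adipose ceramide is known for its links to obesity and insulin action. Transcript levels were measured here, not lipids or enzyme activity.

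The 2 genes whose mice did not overlap between the groups were Smpd1 and Sptlc2, so the 250 bases before their annotated starts are shown, 5′ to 3′ on the strand of the gene (RefSeq, GRCm38.p6). The Smpd1 window lies at chr7:105554110-105554359 on the plus strand, and the Sptlc2 window at chr12:87388356-87388605 on the minus strand. Capitals mark the GC box GGGCGG and the CCAAT box, read on either strand.
Smpd1: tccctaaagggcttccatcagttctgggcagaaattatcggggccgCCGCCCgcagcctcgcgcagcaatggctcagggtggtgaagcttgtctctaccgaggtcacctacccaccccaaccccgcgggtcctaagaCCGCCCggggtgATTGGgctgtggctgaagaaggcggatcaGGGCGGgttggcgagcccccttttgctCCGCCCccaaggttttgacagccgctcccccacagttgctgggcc
Sptlc2: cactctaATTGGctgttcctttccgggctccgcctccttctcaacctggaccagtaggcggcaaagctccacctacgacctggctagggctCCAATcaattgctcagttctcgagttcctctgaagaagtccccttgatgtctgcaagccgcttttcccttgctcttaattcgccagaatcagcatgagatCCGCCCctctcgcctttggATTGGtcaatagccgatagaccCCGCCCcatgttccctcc
The Smpd1 window held 4 GC boxes and 1 CCAAT box, and its GC content was 64.8%. The Sptlc2 window held 2 GC boxes and 3 CCAAT boxes, with a GC content of 55.2%. Neither held the E-box CACGTG or the TATA box TATAAA. Of the 10 genes, 9 had a RefSeq window and Asah1 had none in the table used. These 9 genes had 13 windows, of which 8 held a GC box, 6 a CCAAT box, 3 an E-box (in Cers2, Cers6 and Degs1) and 0 a TATA box. Among all 32851 promoter windows of the table, 32.7% held a GC box, 33.8% a CCAAT box, 6.02% an E-box and 12.4% a TATA box. The median GC content of all these windows was 52.4%, and the motif shares were not matched for GC content. A match describes letters in the window, not a bound site.

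By limma across all genes with a Benjamini-Hochberg adjusted p under 0.05, 2 of the 10 genes rose with IMC (Smpd1 and Degs1), 4 fell (Asah1, Sptlc2, Sgms1 and Cers2) and 4 did not pass (Sptlc1, Cers5, Cers6 and Ugcg). Over the 12787 genes tested, 40.9% passed, with 20% higher and 21.0% lower in the IMC-treated mice. The median log2 difference was -0.13 over the 10 genes and -0.03 over all genes. Negative differences numbered 8 of the 10, beside 6958 of the 12787 genes. The median absolute log2 difference was 0.16 over the 10 genes and 0.17 over all genes. The groups did not overlap for 2 of the 10 genes, beside 23.1% of all genes. The within-group SD had a median of 0.10 log2 units over the 10 genes and 0.13 over all genes. The 10 genes were also at a higher level, with a median of 6.56 log2 CPM against 4.88 over all genes. Neither the SDs nor the shares of genes that passed were matched for level. Each of the 10 was counted in 720 to 8998 reads in every mouse. In the annotation (GENCODE M21), exons of Cers2 and Sgms1 share bases with exons of other genes, all on the opposite strand, and the strand setting used for counting was not given in the sources used here. The other 8 genes share no exon base with another gene.

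**Figure D1:**
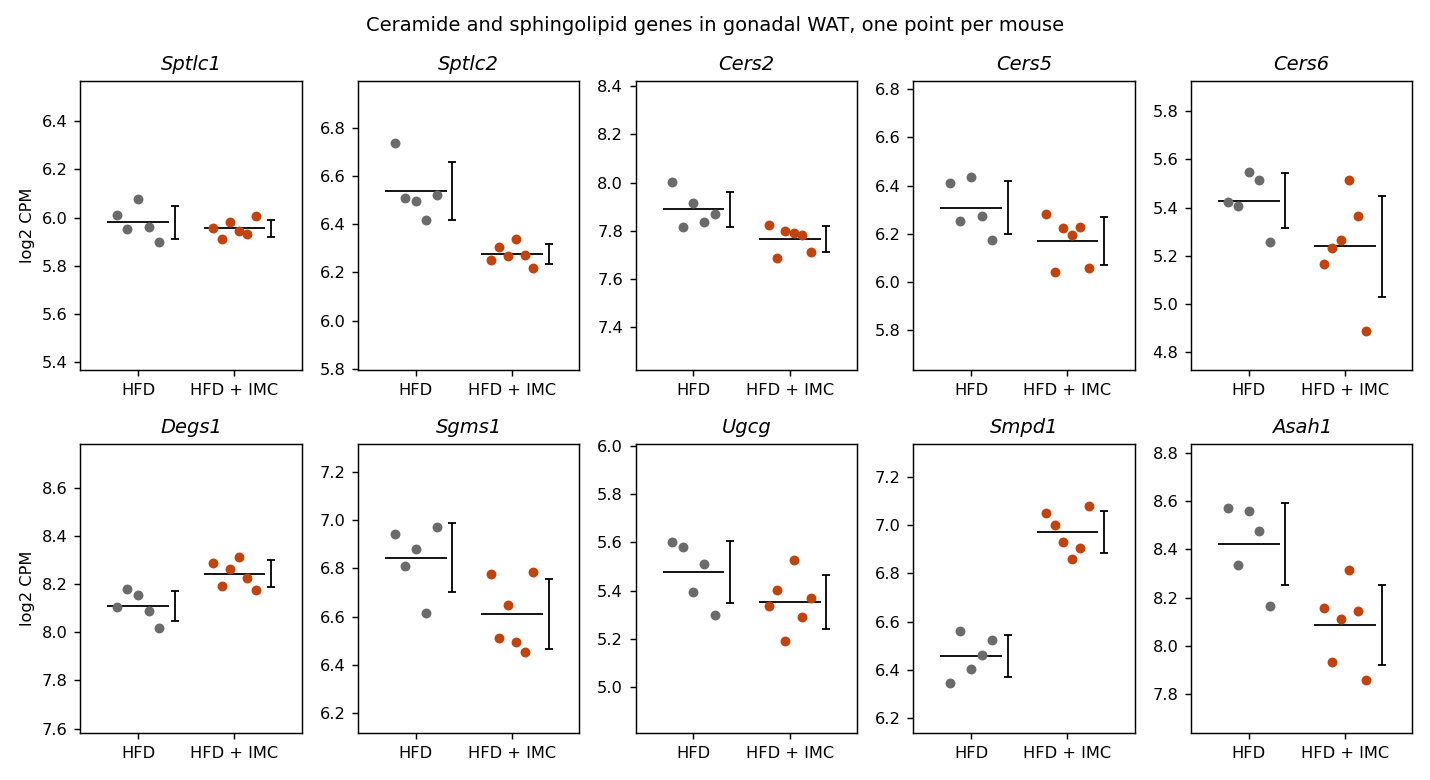
Log2 CPM of the 10 ceramide pathway genes in each of the 11 mice, with the 5 HFD control mice and the 6 IMC-treated mice side by side; lines are group means and bars are SD, and every panel spans the same log2 range. Smpd1 in the IMC-treated mice (6.86 to 7.08) lies above every control (6.34 to 6.56), Sptlc2 lies below every control, and the other 8 genes overlap.

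Serine palmitoyltransferase, the rate-limiting enzyme of sphingolipid synthesis, is built from SPTLC1 and a catalytic subunit, and the transcripts of its 2 subunits here behaved unequally. Sptlc2 (GRCm38, chr12:87305058-87388355, minus strand), which encodes a catalytic subunit, was at 6.74, 6.51, 6.50, 6.42 and 6.52 log2 CPM (reads scaled to library size, on a log2 scale) in HFD mice 2 to 6. In IMC-treated mice 7 to 12 it was at 6.25, 6.31, 6.27, 6.34, 6.27 and 6.22. Every IMC-treated mouse was below every control, with a gap of 0.08 log2 units between the nearest mice. Sptlc2 fell from a mean of 6.54 ± 0.12 (SD, n = 5) to 6.28 ± 0.04 (SD, n = 6), a log2 difference of -0.26 (SE 0.05, limma adjusted p = 0.00198). On the linear scale it fell by 16.6%, and the exact permutation p was 0.00433, the smallest that 5 against 6 mice allow.

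Sptlc1 (chr13:53332748-53377397, minus strand), the subunit shared by all forms of the enzyme, was at 6.01, 5.95, 6.08, 5.96 and 5.90 log2 CPM in the HFD mice. The IMC-treated mice were at 5.96, 5.91, 5.98, 5.94, 5.93 and 6.01, inside the range of the controls. The log2 difference was -0.03 (SE 0.04, 95% interval -0.12 to 0.07, limma adjusted p = 0.664). The ratio of the subunits was therefore taken within each mouse. The log2 ratio of Sptlc2 to Sptlc1 was 0.73, 0.55, 0.42, 0.46 and 0.63 in the HFD mice. It was 0.30, 0.40, 0.29, 0.39, 0.34 and 0.21 in the IMC-treated mice. All 6 of the latter lay below all 5 controls, and the mean log2 ratio differed by -0.24 (two-sided exact permutation p = 0.00433, adjusted p = 0.0101 over the 7 ratios compared).

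Ceramide synthases choose the acyl chain of ceramide, and the 3 paralogs among these genes were all lower on average with IMC, although the test was passed only by Cers2. Cers2 (chr3:95314791-95323599, plus strand), which favors very long acyl chains, was at 8.0, 7.82, 7.92, 7.84 and 7.87 log2 CPM in the HFD mice. It was at 7.82, 7.69, 7.80, 7.79, 7.78 and 7.71 in the IMC-treated mice, so that IMC mouse 7 reached the lowest controls. The log2 difference was -0.12 (SE 0.05, limma adjusted p = 0.0452). On the linear scale it fell by 8.15%. This call was close to the threshold: it was lost without any 1 of HFD mice 2, 4 and 6 and IMC mice 8 to 12 (adjusted p 0.0541 to 0.117). It was also lost under 4 other settings of the fit, with adjusted p of 0.0515 to 0.0654. Exons of Cers2 share 75 bases with exons of Setdb1 and 144 bases with those of 6330562C20Rik, both on the opposite strand.

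Cers5 (chr15:99734881-99772885, minus strand) and Cers6 (chr2:68861441-69114282, plus strand) favor a shorter, palmitate-derived acyl chain. Cers5 was at 6.41, 6.25, 6.44, 6.28 and 6.17 log2 CPM in the HFD mice and at 6.28, 6.04, 6.22, 6.19, 6.23 and 6.06 in the IMC-treated mice. The groups overlapped, and the log2 difference was -0.14 (SE 0.06, 95% interval -0.27 to -0.01, limma adjusted p = 0.0894). It passed without HFD mouse 6 (adjusted p = 0.0414) and when reads were scaled to the library total (adjusted p = 0.0278).

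Cers6, the least abundant of the 10 genes, was at 5.42, 5.41, 5.55, 5.51 and 5.26 log2 CPM in the HFD mice. In the IMC-treated mice it was at 5.17, 5.23, 5.27, 5.52, 5.37 and 4.89, the widest spread of any of the 10 genes (SD 0.21). IMC mouse 10 was as high as the upper controls and IMC mouse 12 was the lowest of all. The log2 difference of -0.19 (SE 0.09, 95% interval -0.39 to 0.01) had a limma adjusted p of 0.125, and of 0.0380 without IMC mouse 10. The balance among Cers2, Cers5 and Cers6 did not differ detectably. Cers4, described below, was not part of these ratios. The log2 ratio of Cers5 to Cers2 was -1.58 ± 0.08 (SD, n = 5) in the HFD mice and -1.59 ± 0.05 (SD, n = 6) in the IMC-treated mice (exact permutation, adjusted p = 0.693). The ratios of Cers6 to Cers2 and of Cers6 to Cers5 differed by -0.07 and -0.05 on the log2 scale, with an exact permutation adjusted p of 0.667 for each.

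Degs1 (chr1:182275772-182282804, minus strand), the desaturase of the last step to ceramide, was one of the 2 genes that rose. It was at 8.10, 8.18, 8.15, 8.09 and 8.02 log2 CPM in the HFD mice and at 8.29, 8.19, 8.26, 8.31, 8.23 and 8.18 in the IMC-treated mice. The groups met only at the edge, where IMC mouse 12 was at the level of HFD mouse 3. The log2 difference was 0.13 (SE 0.04, limma adjusted p = 0.0278), an increase of 9.79% with a 95% interval of 2.71% to 17.4%. The call was lost without any 1 of HFD mice 2, 5 and 6 and IMC mice 7 and 10 (adjusted p 0.0513 to 0.0654), and when reads were scaled to the library total (adjusted p = 0.0693).

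Of the 2 genes that carry ceramide onward, Sgms1 fell and Ugcg did not pass the test. Sgms1 (chr19:32122727-32389714, minus strand), the Golgi sphingomyelin synthase, was at 6.94, 6.81, 6.88, 6.62 and 6.97 log2 CPM in the HFD mice. It was at 6.78, 6.51, 6.65, 6.50, 6.45 and 6.78 in the IMC-treated mice, of which 3 (mice 7, 9 and 12) were above the lowest control. The log2 difference was -0.23 (SE 0.08, limma adjusted p = 0.0304). On the linear scale it fell by 14.9%. The call was lost without any 1 of HFD mice 2, 4 and 6 and IMC mice 8, 10 and 11 (adjusted p 0.0581 to 0.0750).

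Ugcg (chr4:59189257-59222833, plus strand), the glucosylceramide synthase that opens glycosphingolipid synthesis, was at 5.60, 5.58, 5.39, 5.51 and 5.30 log2 CPM in the HFD mice. The IMC-treated mice were at 5.33, 5.40, 5.19, 5.53, 5.29 and 5.37, and the groups overlapped widely. The log2 difference was -0.13 (SE 0.07, 95% interval -0.28 to 0.03, limma adjusted p = 0.171). The within-mouse log2 ratio of Ugcg to Sgms1 was -1.37 ± 0.22 (SD, n = 5) in the HFD mice and -1.26 ± 0.21 (SD, n = 6) in the IMC-treated mice (exact permutation, adjusted p = 0.667).

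Smpd1 (chr7:105554360-105558389, plus strand) had the strongest evidence of a change among the 10 genes. It encodes acid sphingomyelinase, the lysosomal and secreted enzyme that releases ceramide from sphingomyelin, and whose inherited loss causes Niemann-Pick disease. Smpd1 was at 6.34, 6.56, 6.40, 6.46 and 6.52 log2 CPM in the HFD mice and at 7.05, 7.0, 6.93, 6.86, 6.91 and 7.08 in the IMC-treated mice. All 6 IMC-treated mice were above all 5 controls, with a gap of 0.30 log2 units, wider than the spread within either group. Smpd1 rose by 0.51 on the log2 scale (SE 0.05, limma adjusted p = 3.5e-05), which is 1.43-fold or 42.6% higher, with a 95% interval of 31.6% to 54.6%. By p it ranked 97 of the 12787 genes. The call was kept without each mouse in turn, with an adjusted p of at most 0.000201.

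Asah1 (chr8:41340197-41374773, minus strand), acid ceramidase, cleaves ceramide to sphingosine in the lysosome and fell while Smpd1 rose. It was at 8.57, 8.34, 8.56, 8.47 and 8.17 log2 CPM in the HFD mice and at 8.16, 7.93, 8.11, 8.31, 8.15 and 7.86 in the IMC-treated mice. HFD mouse 6 was the lowest control, and IMC mouse 10 was the only treated mouse above it. The log2 difference was -0.34 (SE 0.09, limma adjusted p = 0.0102). On the linear scale it fell by 20.7%, with a 95% interval of the change of -30.8% to -9.27%. The call was kept without each mouse in turn (adjusted p 0.00318 to 0.0305).

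**Figure D2:**
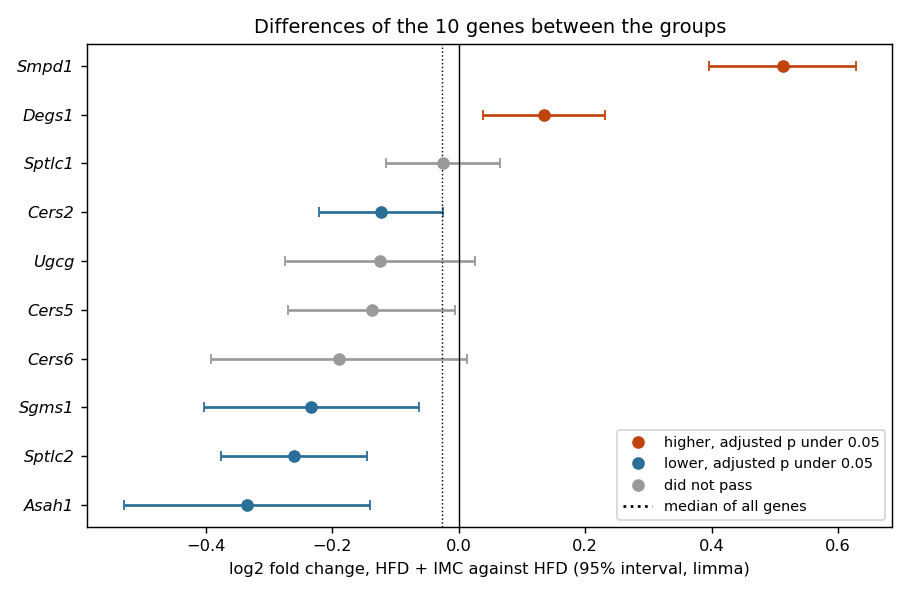
Log2 difference, IMC-treated minus HFD control mice, of the 10 genes with 95% intervals from limma; the dotted line is the median of all genes. Smpd1 stands highest at 0.51 and Asah1 lowest at -0.34, and the intervals of Sptlc1, Cers6 and Ugcg include 0.

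The opposite movement of Smpd1 and its neighbors in the pathway was also read within each mouse, which cancels any scaling between libraries. The log2 ratio of Smpd1 to Sgms1, the enzymes that break and make sphingomyelin, was -0.60, -0.25, -0.48, -0.16 and -0.45 in the HFD mice. In the IMC-treated mice it was 0.27, 0.49, 0.28, 0.36, 0.45 and 0.30. Reads for Sgms1 thus exceeded those for Smpd1 in all 5 controls and in 0 of the 6 IMC-treated mice. This order depends on transcript length, because merged exons span 4597 bases for Sgms1 and 2412 for Smpd1. Per kilobase, mean Smpd1 was already above mean Sgms1 in the controls (36.5 against 25.1 CPM). The group difference in the log2 ratio was 0.75, a 1.68-fold higher ratio with IMC (exact permutation p = 0.00433, adjusted p = 0.0101).

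The log2 ratio of Asah1 to Smpd1, which use and release ceramide in the lysosome, was 2.23, 1.78, 2.16, 2.01 and 1.64 in the HFD mice. In the IMC-treated mice it was 1.11, 0.93, 1.18, 1.45, 1.24 and 0.78. Every treated mouse lay below every control, and the ratio was 0.556 times that of the controls (log2 difference -0.85, exact permutation p = 0.00433, adjusted p = 0.0101). Of the 7 ratios, 3 differed between the groups at an adjusted p under 0.05, and these 3 stayed so without each mouse in turn, with an adjusted p of at most 0.0222. Each of these 3 holds Smpd1 or Sptlc2, so they restate the differences of those genes and are not separate evidence.

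**Figure D3:**
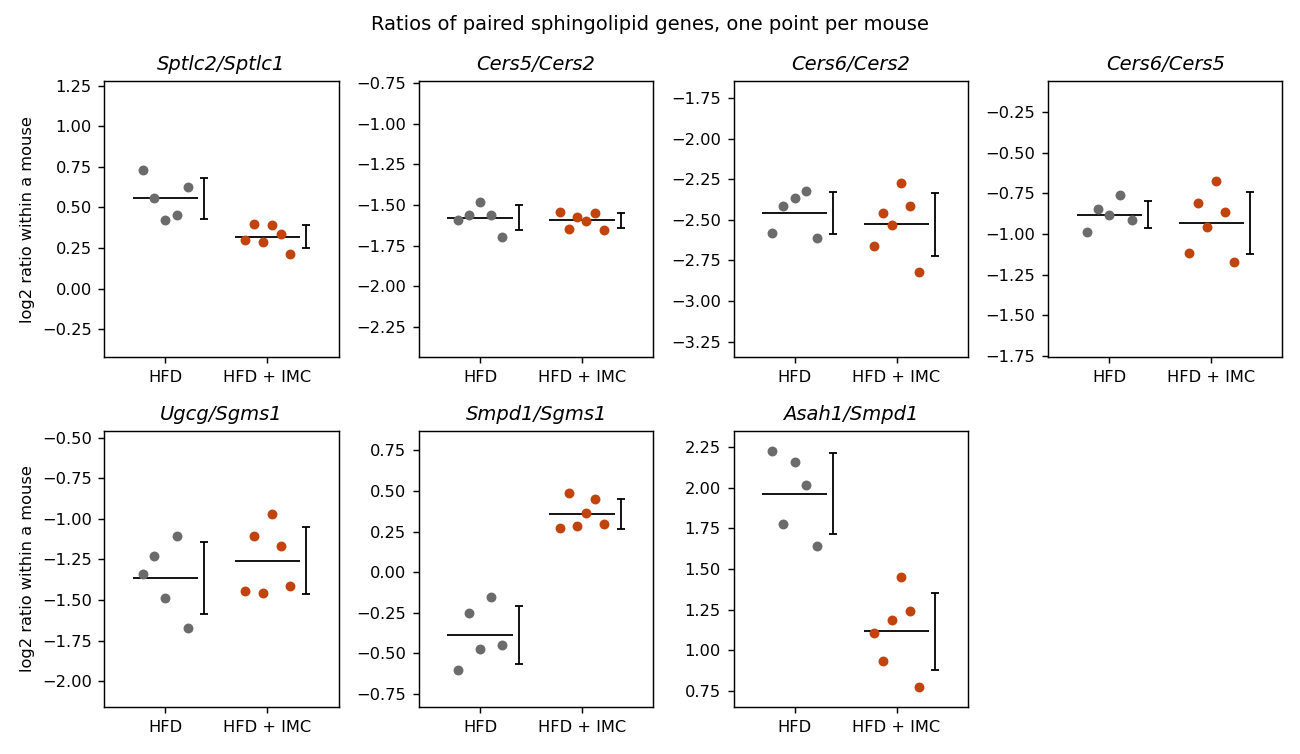
Within-mouse log2 ratios of 7 gene pairs in the 11 mice, with group means and SD. Sptlc2/Sptlc1, Smpd1/Sgms1 and Asah1/Smpd1 separate the 5 HFD control mice from the 6 IMC-treated mice without overlap. The ratios among Cers2, Cers5 and Cers6 and the ratio Ugcg/Sgms1 overlap.

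Levels of different genes were compared as CPM per kilobase of merged exons. In the HFD mice, Degs1 (135 ± 5.83 CPM per kilobase, SD, n = 5), Asah1 (124 ± 14.2) and Cers2 (107 ± 5.55) formed the upper tier, and neighbors in that order overlapped between mice. Smpd1 followed at 36.5 ± 2.21, below Cers2 and above Cers5 in every control. Cers5 (27.3 ± 2.09), Sgms1 (25.1 ± 2.37) and Sptlc1 (24.2 ± 1.15) again overlapped with their neighbors. Sptlc2 (13.9 ± 1.20), Ugcg (11.1 ± 0.98) and Cers6 (6.12 ± 0.47) came last and each was apart from the next. In the IMC-treated mice, Degs1 averaged 148, Asah1 98.5, Cers2 98.2 and Smpd1 52.1 CPM per kilobase. Exon length merges all transcripts of the basic GENCODE set, whether or not they are used in this tissue, so these levels are approximate.

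Around the 10 genes, 58 further genes of the pathway were looked up by role, and 48 of them were listed. Of these, 8 rose, 22 fell and 18 did not pass, or 62.5% called, beside the 40.9% of all genes. Their median log2 difference was -0.18. Leaving out HFD mouse 2 or HFD mouse 4 left 5 or 4 that rose in place of 8.

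Among regulators and partners of serine palmitoyltransferase, 3 of 6 rose and 2 fell. Ormdl3, a membrane protein that restrains the enzyme when ceramide is high, was at 7.16 to 7.83 log2 CPM in the HFD mice and at 7.99 to 8.56 in the IMC-treated mice (log2 difference 0.77, SE 0.13, limma adjusted p = 0.000492). Kdsr, the reductase of the next step, rose by 0.33 on the log2 scale (adjusted p = 0.000539). Sptssa, a small activating subunit, fell by 0.27 (adjusted p = 0.000665). Other members of this group were picked out after their values were seen. Sptlc3, the alternative catalytic subunit, was low, with between 55 and 317 reads in any mouse. It was at 2.28, 2.40, 1.21, 2.56 and 2.46 log2 CPM in the HFD mice and at 2.39, 3.80, 2.48, 3.58, 2.64 and 3.29 in the IMC-treated mice. HFD mouse 4 was far below the other controls, and IMC mice 7, 9 and 11 were close to them. Its log2 difference was 0.85 (SE 0.30, limma adjusted p = 0.0365), and 0.60 (adjusted p = 0.0939) without HFD mouse 4. The call was also lost without HFD mouse 2 or IMC mouse 8, 10 or 12 (adjusted p 0.0582 to 0.0757). The Ormdl3 relatives went the other way on average: Ormdl1 fell by 0.25 (adjusted p = 0.0153), and Ormdl2 differed by -0.19 (adjusted p = 0.0574). Ormdl2 passed without HFD mouse 5 or 6 (adjusted p 0.0131 and 0.0379) and with total-read scaling (adjusted p = 0.0234).

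Of the other ceramide synthases, only Cers4 was listed. It was at 5.19, 5.61, 5.31, 5.40 and 5.70 log2 CPM in the HFD mice and at 6.43, 6.51, 6.12, 6.07, 6.09 and 6.67 in the IMC-treated mice. The groups did not overlap, and Cers4 rose by 0.87 on the log2 scale, or 82.9% (SE 0.12, limma adjusted p = 0.000177), while its paralog Cers2 fell and Cers5 and Cers6 were lower on average. Cers1, Cers3 and Degs2 were not among the listed genes.

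Neither other gene of the sphingomyelin synthase family passed. Sgms2, the plasma membrane form, differed by 0.19 (adjusted p = 0.0705), and the related gene Samd8 by -0.16 (adjusted p = 0.0900). Sgms2 passed without IMC mouse 9 or 10 (adjusted p 0.0355 and 0.0446), and Samd8 without HFD mouse 6 (adjusted p = 0.0492) and with total-read scaling (adjusted p = 0.0358). Of the 4 other sphingomyelinase genes, Smpd4 rose by 0.15 (adjusted p = 0.0393) and Smpd5 fell by 0.50 (adjusted p = 0.00695) at low levels. The Smpd4 call was lost without any 1 of HFD mice 2 to 5 and IMC mice 7, 8, 11 and 12 (adjusted p 0.0637 to 0.101). Smpd2, a neutral sphingomyelinase, differed by 0.13 (adjusted p = 0.365). Each of the 3 other ceramidase genes passed, in both directions. Asah2, the neutral ceramidase, rose by 0.33 (adjusted p = 0.000665) and Acer2, an alkaline ceramidase of the Golgi, rose by 0.49 (adjusted p = 0.0268). Acer3, another alkaline ceramidase, fell by 0.42 (adjusted p = 0.00188). The Acer2 call was lost without HFD mouse 2, 4 or 5 (adjusted p 0.0667 to 0.0721).

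Downstream of Ugcg, 3 of 5 glycosphingolipid synthesis genes fell and 0 rose. B4galnt1, which makes the complex gangliosides, was at 6.32 to 6.68 log2 CPM in the HFD mice and at 5.59 to 6.00 in the IMC-treated mice (log2 difference -0.70, SE 0.09, limma adjusted p = 0.000110). The lactosylceramide synthases B4galt5 and B4galt6 fell by 0.52 and 0.40 (adjusted p = 0.00185 and 0.0139). Of 11 genes for lysosomal and other breakdown of glycosphingolipids, 9 fell, 1 rose (Gm2a, chosen after its value was seen) and 1 did not pass. The Gm2a call was lost without HFD mouse 4 (adjusted p = 0.0516) and with total-read scaling (adjusted p = 0.0607). Hexa, a lysosomal enzyme of ganglioside breakdown, fell by 0.45 (adjusted p = 0.00125), and Neu1, a lysosomal sialidase, fell by 0.26 (adjusted p = 0.00156).

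Past ceramide, 3 of 5 genes for sphingosine 1-phosphate turnover fell and 0 rose. Sgpl1, the lyase that ends the pathway, fell by 0.38 (adjusted p = 0.00235), the phosphatase gene Sgpp1 by 0.32 (adjusted p = 0.00343) and the kinase gene Sphk2 by 0.25 (adjusted p = 0.00440). Among 6 genes for export and receptors of that lipid, S1pr2 alone passed and fell by 0.41 (adjusted p = 0.00843). The exporter genes Spns2 and Mfsd2b differed by 0.54 and 0.15 (adjusted p = 0.0915 and 0.443), and Spns2 passed without IMC mouse 10 (adjusted p = 0.0386). Of 5 genes for ceramide transfer and phosphorylation, Cerk, ceramide kinase, fell by 0.35 (adjusted p = 0.00927) and Gltp, a glycolipid transfer protein, fell by 0.23 (adjusted p = 0.0217). The Gltp call was lost without HFD mouse 2 (adjusted p = 0.0596). Col4a3bp, which carries ceramide from the endoplasmic reticulum to the Golgi, differed by 0.05 (adjusted p = 0.438).

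**Figure D4:**
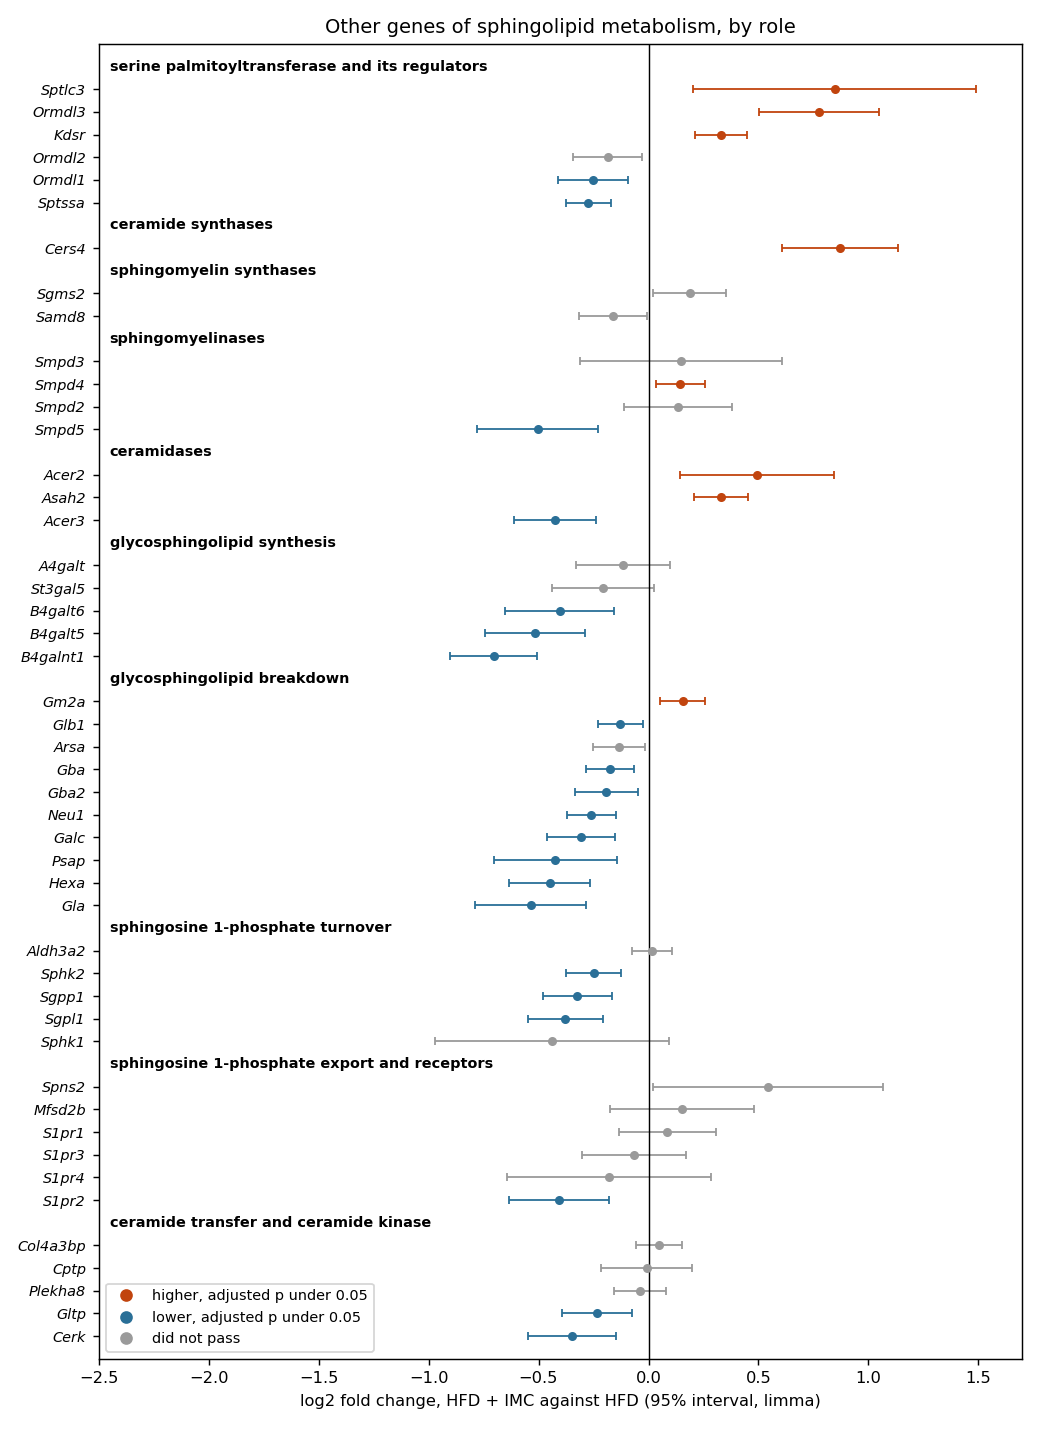
Log2 difference, IMC-treated minus HFD control mice, of the other listed sphingolipid pathway genes by role, with 1 gene not drawn, with 95% intervals from limma; orange genes rose, blue genes fell and gray genes did not pass at an adjusted p of 0.05. Cers4 (0.87), Sptlc3 (0.85, or 0.60 without HFD mouse 4) and Ormdl3 (0.77) stand highest, and the 3 glycosphingolipid synthesis genes in blue lie between -0.70 and -0.40.

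The tissue was read in bulk, so fewer cells of a type and less RNA per cell cannot be told apart. Marker genes of adipocytes and macrophages moved with the groups. All 8 adipocyte markers rose, led in level by Fabp4, Lep and Cidec, and their summed level was 9621 to 13721 CPM in the HFD mice and 18915 to 23001 CPM in the IMC-treated mice. Of 10 macrophage markers, led by Gpnmb, Lyz2 and Cd68, 9 fell and Mrc1 did not pass, with sums of 11931 to 16199 CPM in the HFD mice and 6306 to 10188 CPM in the IMC-treated mice. Neither sum overlapped between the groups. Of 5 progenitor and fibroblast markers 3 fell, of 4 mast cell markers all fell, of 5 endothelial markers 1 rose, of 3 listed mesothelial markers 1 fell, and the 2 listed of 5 skeletal muscle markers rose. The T and B cell (6 genes), epididymis (3 genes) and B cell follicle (2 genes) markers were not among the listed genes. The part of these marker shifts in the changes of Smpd1, Asah1, Sptlc2 and the other pathway genes was not tested.

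**Figure D5:**
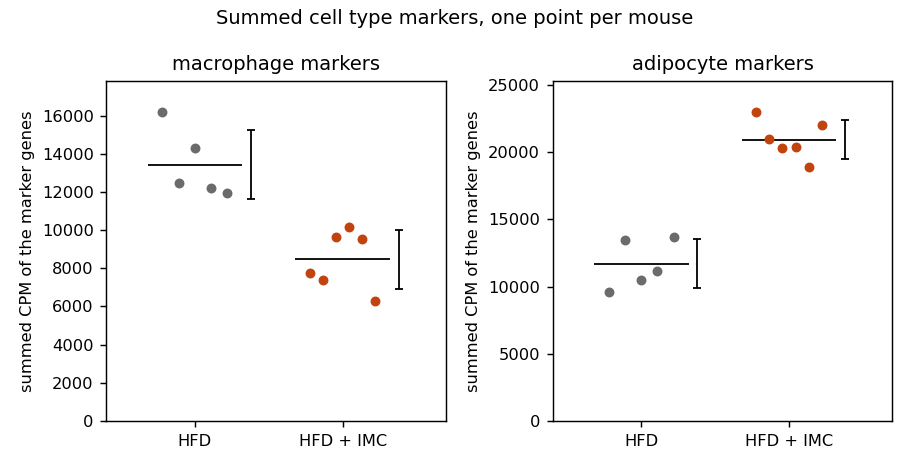
Summed CPM of 8 adipocyte and 10 macrophage marker genes in each of the 11 mice. In the 6 IMC-treated mice the adipocyte sum is 18915 to 23001 CPM, above every control, and the macrophage sum is 6306 to 10188 CPM, below every control.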

How the data were processed

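RNA sequencing of adipose tissue from 5 HFD control and 6 IMC-treated mice was analyzed. The authors trimmed the reads (Trim Galore), aligned them to mm10 and counted them per gene (STAR), removed genes with low counts, scaled by the upper quartile and deposited log2 CPM (edgeR). The deposited log2 fold changes, likelihood-ratio scores and p-values of the authors' own comparison were not used. Whole reads were recovered from every value within 0.1 read, giving 22320022 to 25155366 reads on listed genes per mouse. Group differences were fitted with limma 3.58.1 (trend, R 4.3.3) to the log2 CPM of all 12787 genes, with Benjamini-Hochberg adjustment. Ratios and single genes had two-sided exact permutation tests (scipy 1.17.1), and each test was tested on simulated data. Alternatives were other scalings, an added constant of 2 reads, a filter on low values, limma without trend, with mouse weights or with voom, and leaving out each mouse. The genes named were the 10 ceramide genes, the 3 with the smallest p in each other role, all of a role with 3 or fewer listed, and the 3 highest markers of the main cell types. For 1 gene of glycosphingolipid breakdown, counted in its role, values are not reported here. The genes and lists were chosen with earlier results of these data known. Nothing in the labels says how mice were housed or batched, and mouse numbers pair no samples. The paper describes group housing with more than 1 cage per condition. Cages of the sequenced mice were not given, so every test here treated mice as independent. Positions are from GENCODE M21 and promoters from RefSeq, both on GRCm38, the assembly of mm10.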

Additional observations from a re-analysis of the deposited data

Results flagged for a closer look

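Among 96 groups of mice checked for a single distant value, 4 had one, where chance alone gives about 5% of groups. Col4a3bp, the ceramide transfer protein gene, was at 6.58 log2 CPM in HFD mouse 3 and at 6.45 to 6.49 in the other control mice. B4galt5, a lactosylceramide synthase gene, was at 6.20 log2 CPM in IMC mouse 12 and at 6.65 to 6.79 in the other IMC-treated mice. Sptlc3, a serine palmitoyltransferase subunit gene, was at 1.21 log2 CPM in HFD mouse 4 and at 2.28 to 2.56 in the other control mice. Ormdl1, a regulator of that enzyme, was at 4.07 log2 CPM in IMC mouse 10 and at 3.88 to 3.94 in the other IMC-treated mice.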

How the results depend on the processing

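Smpd1 (log2 difference 0.48 to 0.52), Sptlc2 (-0.29 to -0.25), Asah1 (-0.37 to -0.33) and Sgms1 kept their direction and call under the 8 other scalings, filters and fits, and the first 3 of these genes also without each mouse in turn. The number of the 10 genes that rose was 1 in place of 2 with total-read scaling, and 1 at an adjusted p under 0.01. It was 1 to 2 without each mouse. The number that fell was 1 in place of 4 at an adjusted p under 0.01. It was 5 with total-read scaling, and 3 with median-of-ratios scaling, median centring, voom or no trend. Without each mouse it was 2 to 4, where the lowest count came without HFD mouse 2 or 4 or IMC mouse 8 or 11. Genes without overlap numbered 2 to 4 without each mouse, with 4 in place of 2 without HFD mouse 3. With total-read scaling they numbered 3. Of the other pathway genes, 4 to 9 rose and 20 to 23 fell without each mouse. The log2 ratio of Cers5 to Cers2 differed by -0.044 to 0.0092 without each mouse and turned positive without HFD mouse 4. Scaling moved the median difference of all genes from -0.03 to -0.06 with total reads and to -0.02 with the median of ratios. The cause of these shifts was not tested. No paired analysis was possible because the mouse numbers are not shared between the groups. With 5 and 6 mice, the exact test cannot fall below 0.00433.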
